A study of Mus musculus with 6 samples.

Results

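Genes that signal and repair DNA double-strand breaks were examined for p53 binding in mouse spleen. The set held 37 genes with known roles in this response, of 22367 protein-coding genes annotated on mm9 (GENCODE vM1). Each was given a window made of its annotated gene body and 5 kb on either side, and a gene counted as bound in a peak list when at least 1 peak of that list overlapped the window. The lists came from p53 ChIP-seq, in which DNA fragments recovered with an antibody (NCL-p53-CM5p) are sequenced and regions where they pile up are called as peaks. Spleens of C57/Bl6 mice were split with B220 magnetic beads into B cells and the column flow-through, called non-B cells. Each fraction had a mock list, from animals that were not irradiated, and an irradiated (IR) list, from animals examined 4 h after 7 Gy to the whole body, and these 4 wild-type lists all came from Trp53+/+ animals of 8 weeks. The remaining list came from total spleen cells of irradiated Trp53-/- mice, which lack p53, so that its cells were not the sorted fractions. Chromatin was pooled across animals and each group had 1 library. No difference between groups could therefore be set against a spread between replicates, and all values below describe these libraries.

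A double-strand break is recognised by the Mre11a, Rad50 and Nbn complex, which recruits and activates the kinase Atm, while Atr responds to resected, single-stranded DNA. These kinases phosphorylate Chek1, Chek2, the histone H2AX and p53 itself, and the mark on chromatin is read by Mdc1, which brings in the ubiquitin ligases Rnf8 and Rnf168 and then Trp53bp1. The break is then joined directly by the Ku, DNA-PK and ligase IV machinery (end joining) or copied from a sister chromatid (homologous recombination), and lymphocytes also depend on end joining for the rearrangement of their antigen receptor genes. p53 thus lies downstream of several of these genes, and in the comparison described here their own loci were examined for p53.

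For B cells the mock list held 1413 peaks and the irradiated list 24507, for non-B cells the numbers were 712 and 21400, and the Trp53-/- list held 83. The deposited value of a peak was taken as −log10 of its p-value against the background of its own library, a unit read from the values, since the lists have no header. It depends on depth, which is unknown here, so each peak is also given its percentile, the share of peaks in the same list with that value or a lower one. Cdkn1a and Mdm2, well-known p53 targets, served as a check of the labels. The highest window peak of Cdkn1a had a value of 318.37 in irradiated B cells and 620.98 in irradiated non-B cells, and neither Cdkn1a nor Mdm2 had a peak in the Trp53-/- list. The lists carry no expression, so the cell type labels could not be checked against marker genes.

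After irradiation most of the break-repair genes had a p53 peak. In the mock lists, where few genes of any kind did, their counts lay near the share of all genes. In irradiated B cells 33 of the 37 genes had a window peak (89.2%, 95% Wilson interval 75.3 to 95.7), against 48.6% of all protein-coding genes. In irradiated non-B cells 32 of the 37 did (86.5%, interval 72.0 to 94.1), against 47.0% of all. In the mock lists 1 of the 37 had a peak in mock B cells, where 3.69% of all genes did, and 0 of the 37 in mock non-B cells, where 1.82% of all genes did. In Trp53-/- spleen IR 0 of the 37 had a peak, beside 0.103% of all genes. A count of 0 of 37 has an upper 95% Wilson bound of 9.41%, and these intervals cover counting error only. Both irradiated wild-type lists held a window peak for 32 of the 37 genes and for 44.3% of all genes (62.9% weighted to the lengths and promoter CpG class of the 37), and the remaining gene of irradiated B cells was Rnf168. Counting only peaks with a deposited value of at least 20 left 22 of the 37 genes in irradiated B cells (59.5%) and 21 in irradiated non-B cells (56.8%), beside 40.6% and 38.3% of genes weighted to the same lengths, and the single mock peak was lost at a minimum value of 8.

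The genes of the set are long, and a long window has more room for a peak. The median length of the 37 genes was 52251 bp and that of all protein-coding genes 15427 bp, and 17 of the 37 lay in the quintile of the longest genes and 14 in the next. Weighting all protein-coding genes to the length quintiles of the 37 gave a share with a window peak of 60.0% in irradiated B cells and 57.8% in irradiated non-B cells, so the repair genes stood 29.2 and 28.7 percentage points above genes of like length. Among the 17 longest members every gene had a peak in both irradiated lists, while 60.9% and 58.2% of all genes in that quintile did. In the quintile below it the counts were 11 of 14 in irradiated B cells and 10 of 14 in irradiated non-B cells, beside 61.4% and 59.6% of all genes. In the mock lists the length-weighted shares were 5.47% and 2.75%, and 1 and 0 of the 37 genes were bound there.

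**Figure D1:**
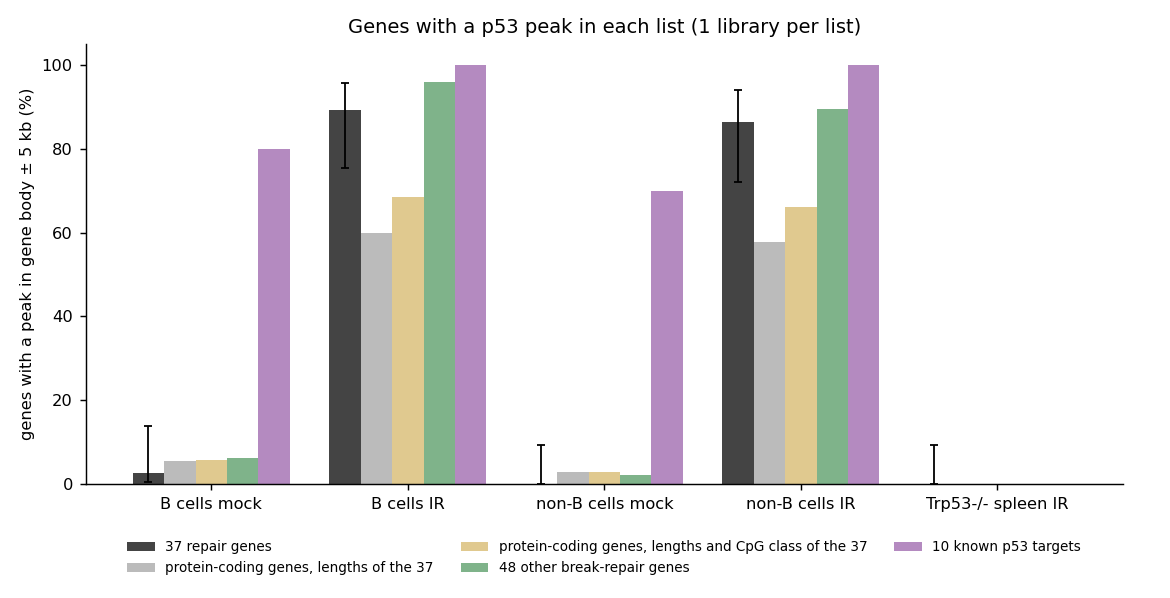
Share of genes with a p53 peak in the gene body or within 5 kb of it (%), for each of the 5 lists. Dark bars are the 37 repair genes with 95% Wilson intervals, the other bars are all protein-coding genes weighted to the lengths, or to the lengths and promoter CpG class, of the 37, then 48 other break-repair genes and 10 known p53 targets. The repair genes reach 89.2% and 86.5% in the irradiated wild-type lists and lie near 0 in the mock lists, where 8 and 7 of the 10 known targets had a peak.

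**Figure D2:**
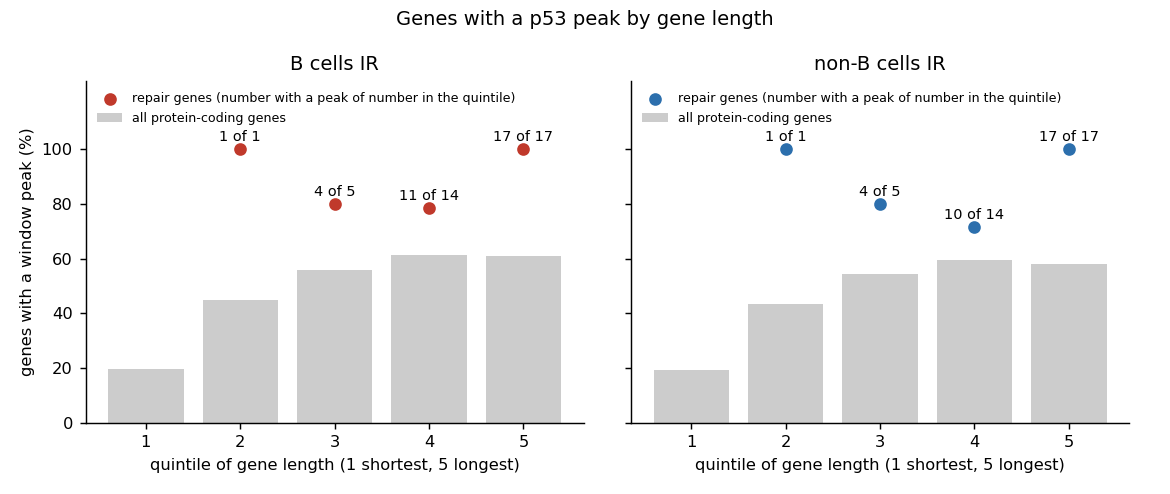
Share of genes with a window peak (%) by quintile of gene length, with 1 panel for each irradiated wild-type list. Grey bars are all protein-coding genes and points are the repair genes, labelled with the number bound of the number in that quintile. The points lie above the bars in every quintile that holds a repair gene.

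Most members also have the CpG-rich promoters typical of genes that are active in many tissues. The ratio of observed to expected CpG from 250 bases before to 50 bases after the start site was at least 0.6 in 31 of the 37 genes (83.8%) and in 46.5% of all protein-coding genes. Genes of that class were bound more often as a whole: 71.6% of all CpG-rich genes had a window peak in irradiated B cells and 69.7% in irradiated non-B cells, against 28.6% and 27.2% of the others. Weighting by length and CpG class together raised the comparison share to 68.5% in irradiated B cells and 66.2% in irradiated non-B cells. The shares of the 37 genes remained above these by 20.7 and 20.3 percentage points. This comparison was added after the data had been seen.

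Promoter binding gave a similar picture. With a promoter that began 5 kb before an annotated start site and ended 2 kb after it, 29 of the 37 genes had a promoter peak in irradiated B cells, beside 39.4% of all genes, and 29 in irradiated non-B cells, beside 38.3%. Weighting to length and CpG class raised these shares of all genes to 55.7% and 54.1%, against 78.4% of the 37 in each list. The corresponding counts were 1 in mock B cells, where 1.96% of all genes had such a peak, 0 in mock non-B cells, where 0.948% did, and 0 in Trp53-/- spleen IR, where 0.0671% did. The 37 windows held 47 peaks in irradiated B cells and 44 in irradiated non-B cells, and 31 peaks in each list had their midpoint within 1 kb of a start site of the member. The median distance of those start-site peaks from the start site was 44 bp in irradiated B cells and 45 bp in irradiated non-B cells. Most p53 peaks of these genes were thus centred close to a start site. Of all peaks, 8385 of 24493 in irradiated B cells and 7878 of 21397 in irradiated non-B cells lay within 1 kb of a start site. Every member window contains a start site and much of the genome does not, so these numbers are not a like comparison.

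These peaks were of middling rank. The highest window peak of a bound member had a median percentile of 69.1 in irradiated B cells and 72.5 in irradiated non-B cells, beside 64.0 and 65.1 for all bound protein-coding genes. A highest peak with a percentile over 80 was found in 10 of the 37 genes in irradiated B cells and 11 in irradiated non-B cells, which is 30.3% and 34.4% of the bound members, beside 27.7% and 29.4% of all bound genes. No member peak had a percentile over 90 in either list, and the highest values were 54.23 in irradiated B cells and 53.27 in irradiated non-B cells. The 10 known p53 targets stood elsewhere, with a median percentile of 99.3 in irradiated B cells and 99.6 in irradiated non-B cells. The 10 excision repair and nucleotide supply genes lay between them, with 8 of 10 bound in each irradiated list at median percentiles of 86.7 and 85.1.

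**Figure D3:**
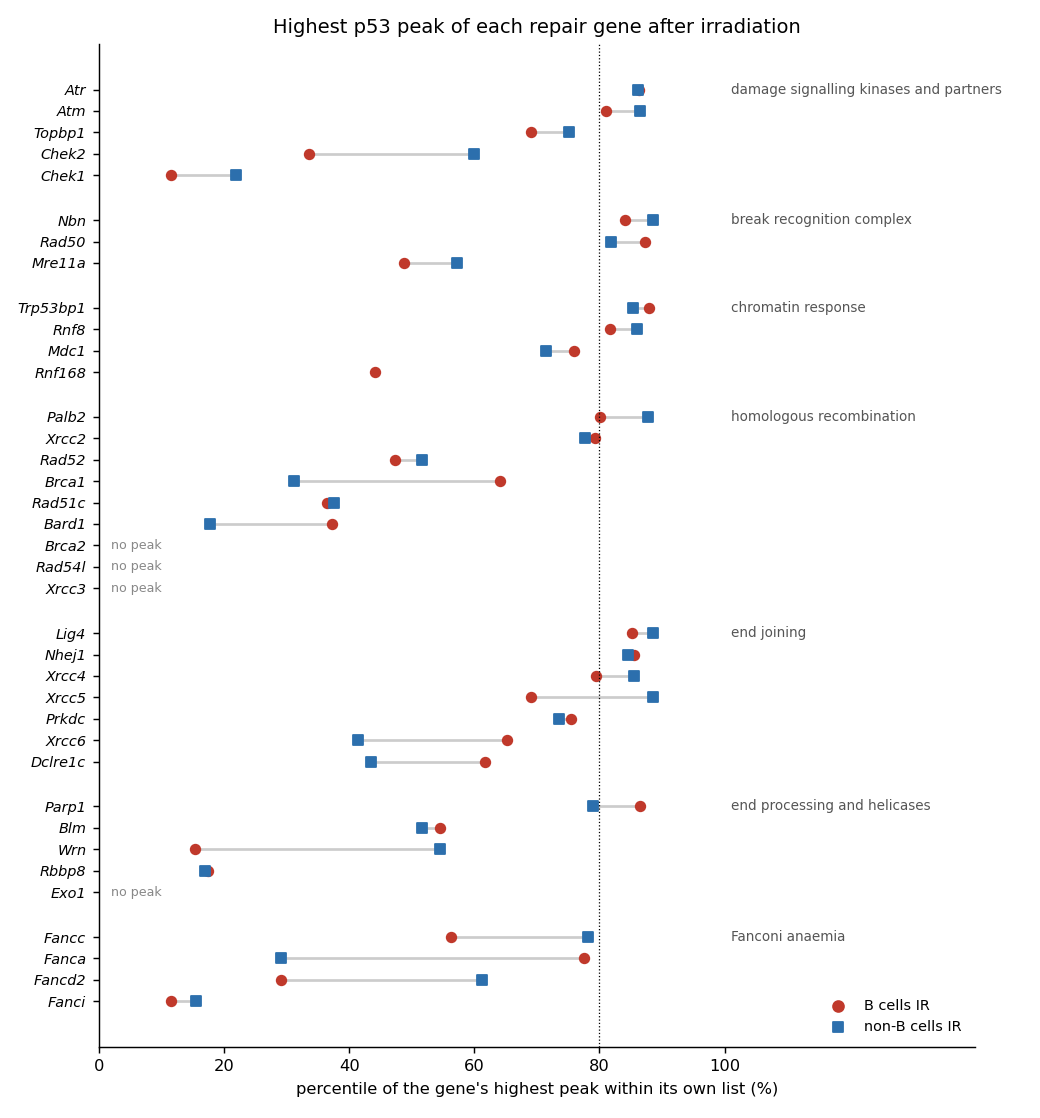
Percentile of the highest window peak of each repair gene within its own list (%), for B cells IR (circles) and non-B cells IR (squares), grouped by role. The dotted line marks 80, no point lies above 90, and Brca2, Rad54l, Xrcc3 and Exo1 had no peak.

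A minority of the peaks held the unsplit form of the sequence that p53 recognises, and none of these lay at the main start site of its gene. Matches with a spacer are counted separately at the end. The unsplit p53 response element consists of 2 decamers without a spacer, each with C at its position 4 and G at its position 7, and up to 3 mismatches at the other positions were allowed within 300 bp of the peak midpoint. It was present in 6 member peaks of each irradiated list, which belonged to the same 5 genes: Wrn, Trp53bp1, Xrcc4 (at 2 sites), Nhej1 and Fanca. Of all peaks, 15.3% held it in irradiated B cells and 15.4% in irradiated non-B cells, and of windows moved by 10 kb, 3.22% and 3.30%. Among member peaks within 1 kb of an own start site 1 of 31 held the element in each list, where 4.58% and 4.53% of all start-site peaks did. Among member peaks farther away 5 of 16 held it in irradiated B cells and 5 of 13 in irradiated non-B cells, beside 20.9% and 21.7% of all peaks away from start sites. This is not a like comparison, since the shares over all peaks leave out peaks within 1 kb of any start site. Of the member peaks, 4 of the 16 and 5 of the 13 lay that close to another gene's start, and those held no unsplit element.

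The elements are shown with 30 bases of mm9 on either side, 1 for each of these peaks. Where a peak held several matches, the one with the fewest mismatches is shown, or among equals the one nearest the midpoint. The Nhej1 stretch holds a further match with 3 mismatches, which joins the second decamer of the element shown to the 10 bases after it. Capitals mark the element shown, positions are counted from 1 at its 5′ end, and all 6 shown lie in introns.
Wrn, chr8:34358359-34358438, plus strand: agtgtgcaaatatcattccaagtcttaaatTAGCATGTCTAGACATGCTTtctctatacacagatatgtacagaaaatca
Trp53bp1, chr2:121083165-121083244, plus strand: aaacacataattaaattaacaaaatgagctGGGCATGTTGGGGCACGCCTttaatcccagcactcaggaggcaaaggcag
Xrcc4 site nearer the start, chr13:90164100-90164179, plus strand: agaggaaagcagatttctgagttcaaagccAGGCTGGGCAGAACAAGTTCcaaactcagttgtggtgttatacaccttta
Xrcc4 site farther from the start, chr13:90030531-90030610, plus strand: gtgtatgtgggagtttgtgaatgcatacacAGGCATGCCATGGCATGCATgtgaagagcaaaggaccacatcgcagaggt
Nhej1, chr1:75075025-75075104, plus strand: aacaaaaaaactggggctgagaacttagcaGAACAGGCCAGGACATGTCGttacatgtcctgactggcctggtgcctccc
Fanca, chr8:125807094-125807173, plus strand: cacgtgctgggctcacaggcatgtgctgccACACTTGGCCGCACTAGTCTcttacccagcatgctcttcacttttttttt
The Wrn element came nearest to the consensus, with 1 mismatch, at position 1. The Trp53bp1 element had 2, at positions 10 and 16, and the other 4 elements had 3 each. The 20 bases after the Trp53bp1 element occur 10966 times in mm9 on either strand, while the element itself occurs 1 time. The 20 bases before the Xrcc4 site nearer the start occur 234 times, and those after the Nhej1 element 142 times. The part of repeated sequence in these peaks was not tested.

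**Figure D4:**
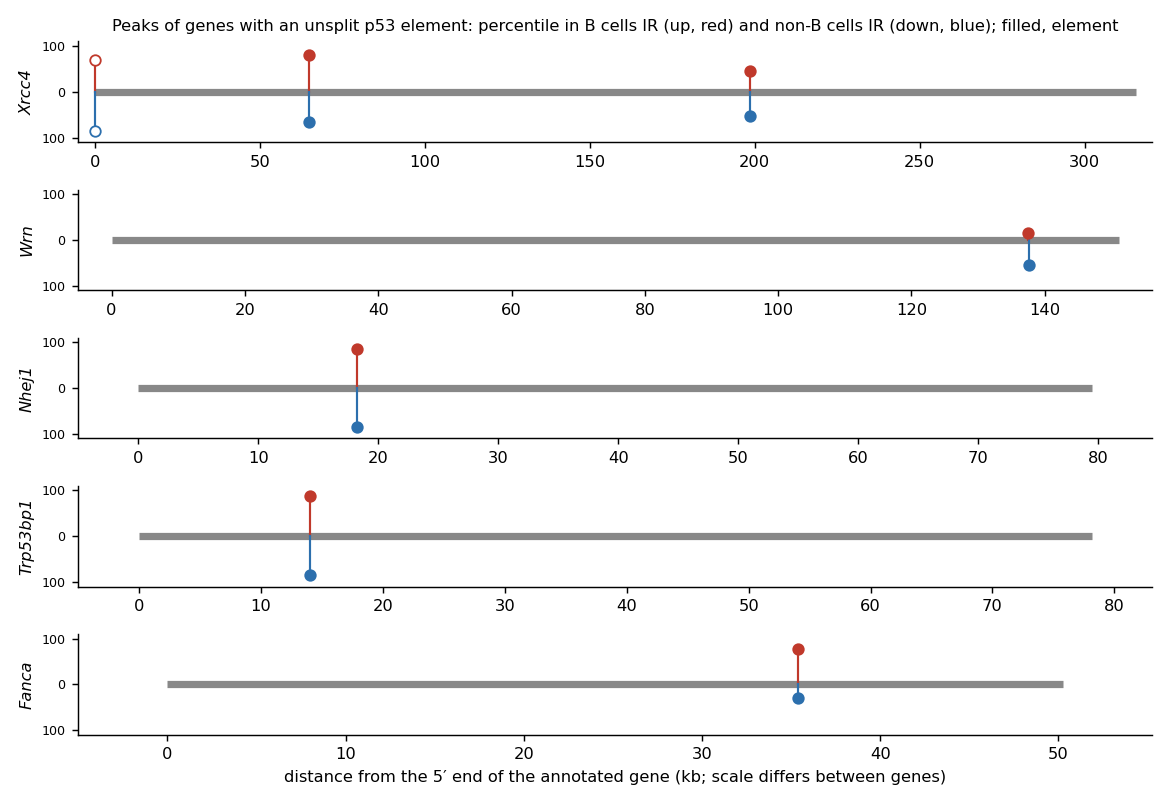
Position of the window peaks of the 5 genes with an unsplit p53 element, as distance from the 5′ end of the annotated gene (kb). Stems show the percentile of each peak in B cells IR (up) and non-B cells IR (down), filled symbols hold the element, and grey bars are gene bodies. The element peaks lie inside the genes, nearest to the 5′ end in Trp53bp1 and farthest from it in Xrcc4, while the open symbols at the 5′ end of Xrcc4 mark its start-site peak.

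The groups by role described from here on held 3 to 9 genes each, too few to set one group against another. Their counts stand beside 44.3% of all protein-coding genes bound in both irradiated lists. Weighted to the lengths and promoter CpG class of the 37, that share was 62.9%. Among the signalling kinases and their partners all 5 genes were bound in both irradiated lists, at their start sites. Atm and Atr, the kinases at the top of the response, ranked highest. Atm had 1 peak, 53 bp before its start site in irradiated B cells with a value of 40.68 (percentile 81.0) and 85 bp before it in irradiated non-B cells with 48.69 (percentile 86.5). The start site of Npat lies 307 bp away on the other strand. Atr had a start-site peak of 50 in irradiated B cells (percentile 86.3) and 48.01 in irradiated non-B cells (percentile 86.2). A further peak in the window of Atr, downstream of the gene, lay 52 bp from the start site of the neighbouring gene Xrn1 in irradiated B cells. The adaptor Topbp1, which activates Atr, had values of 28.89 and 32.72. Its peak midpoint was nearer to the start of a neighbouring gene on the other strand, 133 bp away from that of Topbp1, so the peak cannot be given to 1 of the pair. The checkpoint kinases downstream ranked lower. Chek2 had values of 14.43 (percentile 33.5) in irradiated B cells and 23.23 (percentile 59.9) in irradiated non-B cells, and the first of these peaks was centred 1 bp from the start of Hscb, which lies 240 bp from that of Chek2 on the other strand. Chek1 had 9.46 (percentile 11.6) and 11.80 (percentile 21.9).

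All 3 genes of the break recognition complex were bound at the start site in both irradiated lists. Rad50, the ATPase of the complex, carried the start-site peak of the highest rank among the 37 genes in irradiated B cells, with a value of 52.81 (percentile 87.3), and had 40.54 (percentile 81.9) in irradiated non-B cells. Nbn, the subunit that binds Atm, had 45.85 (percentile 84.1) and 52.93 (percentile 88.5), in a peak of 1003 and 806 bp whose midpoint lay 418 and 327 bp inside the gene. Mre11a, the nuclease, had 19.35 (percentile 48.8) and 21.89 (percentile 57.3). The order of Rad50 and Nbn was thus opposite in the 2 cell fractions, and Mre11a was lowest in both.

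Of the chromatin response genes, Mdc1 was the only member with a peak before irradiation. That peak, chr17:35978323-35978405 in mock B cells, lay 96 bp before the start site, was 83 bp wide and had a value of 5.95 (percentile 7.01), below the value of 8 that the stated calling limit corresponds to in the unit assumed here. After irradiation the same site had 34.70 (percentile 75.9) in irradiated B cells and 30.10 (percentile 71.4) in irradiated non-B cells, in peaks of 726 and 710 bp. A second Mdc1 window peak, present in both irradiated lists, lay at the start site of the tubulin gene Tubb5, and a weak peak of 10.93 in irradiated non-B cells alone lay at the start of Nrm.

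Trp53bp1, which binds p53 and steers breaks toward end joining, had the highest-ranked member peak of irradiated B cells, chr2:121082830-121083395, with a value of 54.23 (percentile 87.9). In irradiated non-B cells the overlapping peak had 45.96 (percentile 85.4). This is the intronic peak with the element shown above, 14030 bp from the 5′ end of the gene in irradiated B cells and 5350 bp before the nearest of its 20 annotated start sites, and no peak was called at the 5′ end. Rnf8, the ligase that acts after Mdc1, had a start-site peak of 24.52 (percentile 61.3) and 20.63 (percentile 53.4). A higher one of 41.78 (percentile 81.7) and 47.34 (percentile 86.0) lay in an annotated intron, 10 bp from the start of Ftsjd2 in irradiated B cells. Rnf168, which extends the ubiquitin mark, was listed in irradiated B cells alone. Its 2 peaks there were 9 and 1415 bp before the start site with values of 12.62 (percentile 25.4) and 17.27 (percentile 44.0). In irradiated non-B cells the nearest peak was 30016 bp from the gene.

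Homologous recombination genes formed the largest group and held 3 of the 4 members without a peak in any list. Brca2, a tumour suppressor of the recombination pathway (chr5:151325205-151372321), Rad54l, a motor protein of strand exchange (chr4:115766869-115796295), and Xrcc3, another recombination protein (chr12:113041403-113052084), had no window peak. The nearest peak of irradiated B cells lay 22792, 13992 and 56863 bp from these genes, and that of irradiated non-B cells 22835, 14048 and 56856 bp away. The other 6 of the 9 genes of the group were bound in both irradiated lists, near the weighted share of 62.9% of all genes. Palb2, the partner that ties Brca1 to Brca2, ranked highest, with 39.59 (percentile 80.1) in irradiated B cells and 51.30 (percentile 87.7) in irradiated non-B cells. Its start site lies 95 bp from that of Dctn5 on the other strand.

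Xrcc2, which also acts in recombination, had 38.50 (percentile 79.3) and 35.29 (percentile 77.7), 4 and 11 bp from its start site. Brca1 had 2 peaks in each list in the stretch it shares with Nbr1, whose start site is 194 bp away on the other strand. The higher one had 26.12 (percentile 64.1) in irradiated B cells and 13.90 (percentile 31.1) in irradiated non-B cells, and each of the 4 peaks was nearer to a start site of Nbr1 than of Brca1. Bard1, the partner of Brca1, had 15.31 (percentile 37.2) and 11.13 (percentile 17.7). Rad51c and Rad52 had percentiles between 36.5 and 51.6 in the 2 lists. A start site of Tex14 lies 111 bp from one of Rad51c on the other strand.

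All 7 end joining genes were bound in both irradiated lists. Lig4, the ligase that seals the break, ranked highest in irradiated non-B cells: its start-site peak had 53.27 (percentile 88.6) there and 48.14 (percentile 85.1) in irradiated B cells. A second peak at an alternative start site of Lig4 had 25.66 and 32.79. The start site of Lig4 is 21 bp from that of Abhd13. Xrcc5, the larger Ku subunit, had 28.89 (percentile 69.1) in irradiated B cells and 52.93 (percentile 88.5) in irradiated non-B cells, whereas its partner Xrcc6 had 26.45 (percentile 65.2) and 16.25 (percentile 41.4). The 2 Ku genes thus differed by cell fraction in opposite directions, in 1 library each, and neither by more than 25 percentile points. Over all genes bound in both lists 13.6% differed by more than that. A start site of Pppde2 lies 144 bp from one of Xrcc6 on the other strand.

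Xrcc4, the scaffold of Lig4, was the longest member at 315582 bp and had 3 peaks in each list. Its start-site peak had 28.97 (percentile 69.4) in irradiated B cells and 45.97 (percentile 85.4) in irradiated non-B cells. A start site of Tmem167 lies 41 bp from one of Xrcc4 on the other strand. The element-bearing intronic peak 64944 bp from the 5′ end in irradiated B cells had 38.90 (percentile 79.4), and 25.79 (percentile 65.1) in irradiated non-B cells, so the order of start site and intron was reversed between the lists. The farther intronic peak had 17.80 (percentile 45.1) and 20 (percentile 52.2). Nhej1, also called XLF, a further scaffold of ligation, had a single intronic peak with an element, of 48.61 (percentile 85.5) and 44.59 (percentile 84.6), 18209 bp from its 5′ end in irradiated B cells. Prkdc, the catalytic subunit of DNA-PK, had 33.90 (percentile 75.4) and 31.46 (percentile 73.6) at its start site, and a weak intronic peak of 10.99 in irradiated B cells alone. A start site of Mcm4 lies 466 bp from that of Prkdc on the other strand. Dclre1c, the nuclease Artemis, had 24.58 (percentile 61.6) and 12.77 (percentile 26.4) at its start site. A body peak of 10.16 was called in irradiated B cells alone, and a peak in both lists near the start of Meig1 had 15.54 and 17.27.

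Of the end processing and helicase genes 4 of 5 were bound in both irradiated lists. Parp1, the sensor that marks breaks with ADP-ribose chains, had 3 peaks in each list. The start-site peak was the lowest, with 13.81 (percentile 30.8) in irradiated B cells and 16.25 (percentile 41.4) in irradiated non-B cells. A peak over coding exon sequence about 19 kb into the gene had 50.69 (percentile 86.4) and 36.59 (percentile 79.0), and a peak downstream of the gene had 48.74 (percentile 85.6) and 34.71 (percentile 77.0). Neither held an unsplit element. In irradiated B cells the downstream peak held an element with a spacer of 1 to 15 bases and at most 2 mismatches. Of all peaks in that list 15.9% did, and of windows moved by 10 kb 11.7%.

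Wrn, the helicase mutated in Werner syndrome, had a single peak, chr8:34358382-34358570 in irradiated B cells, deep in the gene at 137523 bp from its start site. It contains the best-matching element of the set and had a value of 10.16 (percentile 15.3) in irradiated B cells and 20.66 (percentile 54.6) in irradiated non-B cells. Blm, the helicase mutated in Bloom syndrome, was bound in both lists but at different places. Irradiated B cells had peaks of 21.41 just past the 3′ end of the gene and 8.72 within it, and irradiated non-B cells had a start-site peak of 11.80 and another of 19.53 past the 3′ end. Rbbp8, which starts end resection as CtIP, had 10.93 in both lists, near an internal start site. Exo1, the nuclease that extends resection (chr1:177810909-177841527), had no peak, and the nearest peaks were 220536 and 187961 bp away.

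All 4 Fanconi anaemia genes, which repair crosslinks together with the recombination proteins, were bound in both irradiated lists. Fanca, a subunit of the core complex, had 36.49 (percentile 77.6) in irradiated B cells and 13.13 (percentile 29.1) in irradiated non-B cells. Its peak lay 35377 bp from the 5′ end in irradiated B cells and 532 bp from an internal annotated start site, and in each list it was the only member peak within 1 kb of a start site that held an unsplit element. Fancd2, the protein the core complex ubiquitinates, went the other way with 13.15 (percentile 29.1) and 24.07 (percentile 61.2), at a start site 44 bp from that of Tmem111. Fancc, another core subunit, had 22.02 (percentile 56.3) and 35.97 (percentile 78.2). Fanci, the partner of Fancd2, was the lowest of the group with 9.46 (percentile 11.6) and 10.35 (percentile 15.6).

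**Figure D5:**
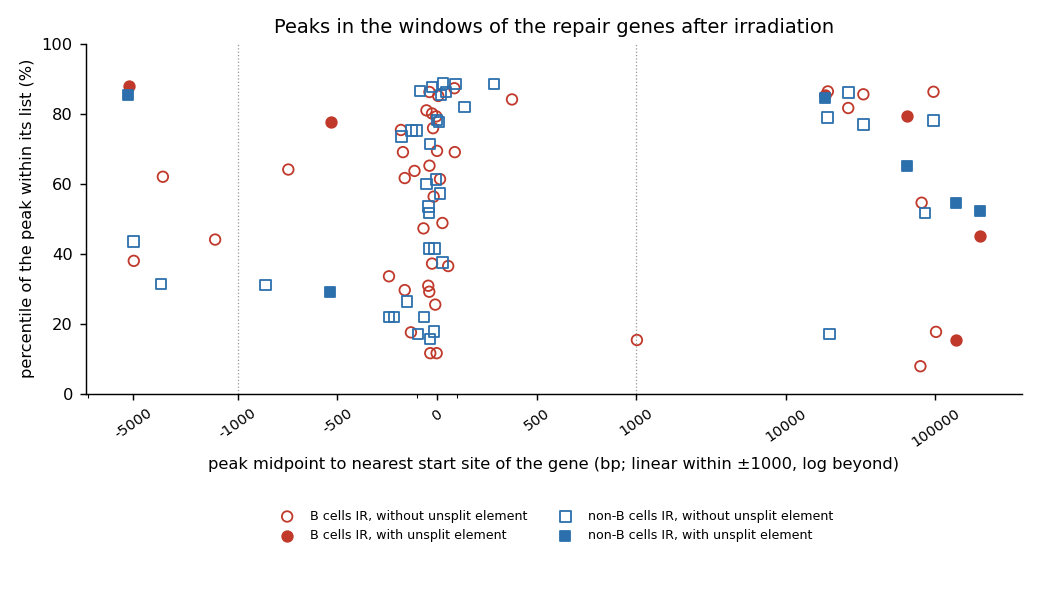
Peaks in the windows of the repair genes after irradiation: signed distance of the peak midpoint from the nearest start site of the gene (bp, linear within 1 kb of the start site and logarithmic beyond) against the percentile of the peak within its list (%). Circles are B cells IR, squares non-B cells IR, and filled symbols hold an unsplit p53 element. Open symbols gather at the start site over the whole range of ranks up to 88.6, and the filled symbols lie away from it, at 532 and 537 bp in Fanca and farther in the other 4 genes.

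Most member peaks were called at the same site in both irradiated lists, as were most peaks of these lists as a whole. Of the 47 member peaks in irradiated B cells 41 overlapped a peak of irradiated non-B cells (87.2%, beside 73.6% of all peaks in that list). Of the 44 in irradiated non-B cells 41 overlapped a peak of irradiated B cells (93.2%, beside 85.3% of all). The single mock peak overlapped a peak of both. Over the 32 members bound in both lists the highest peak had the higher percentile in irradiated B cells for 15 genes and in irradiated non-B cells for 17, and the median absolute difference was 5.77 percentile points, beside 8.43 over all genes bound in both. A difference of more than 25 points was seen in 5 members, namely Wrn, Chek2 and Fancd2 toward non-B cells and Fanca and Brca1 toward B cells. Over all genes bound in both lists 13.6% differed by more than that. With 1 library for each fraction these contrasts have no replicate check.

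Neighbouring genes limit what can be assigned to a member. Of the 37 genes 14 have a start site within 1 kb of that of another protein-coding gene, whereas 13.7% of all protein-coding genes do. Of these 14, 11 had a start-site peak in an irradiated list. Over all 37 genes 29 had a peak within 1 kb of a start site in each irradiated list. Of all protein-coding genes 35.5% did in irradiated B cells and 34.7% in irradiated non-B cells, and of CpG-rich ones 58.5% and 57.5%. The share over all genes with a neighbouring start site that close was not counted. Of the start-site peaks, 5 of 31 in irradiated B cells and 3 of 31 in irradiated non-B cells were nearer to the start of the neighbour. Of the peaks away from an own start site, 4 of 16 and 5 of 13 lay within 1 kb of another gene's start. When a peak had to be nearest to a start site of the member, 28 genes were bound in irradiated B cells and 30 in irradiated non-B cells, beside 40.3% and 38.5% of all genes under the same rule. These are 75.7% and 81.1% of the members, and weighting all genes to length and CpG class gave 59.8% and 57.2%.

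The stretches before the start sites were searched on both strands for short motifs of factors that act at such promoters, from 250 bases before to 50 after the start site of the transcript with the longest coding sequence. TTTCCCGC, a form of the E2F site, was found in 8 of the 37 members (21.6%) and in 1.44% of all protein-coding promoters, or 2.58% of CpG-rich ones. The 8 were Chek2, Mdc1, Brca2, Bard1, Rad51c, Prkdc, Wrn and Fancd2. CCGGAAG, an ETS site, was found in 10 members (27.0%), beside 10.9% of all promoters and 19.2% of CpG-rich ones, and the NRF1 palindrome in 6 (16.2%), beside 6.04% and 12.3%. CCAAT, the NF-Y site, was in 15 (40.5%), beside 37.6% of all. TTTGAA, the CHR of cell cycle genes, was in 2 (5.41%), beside 15.8% of all promoters and 9.74% of CpG-rich ones. Its variant TTCGAA was in 1, beside 1.77% and 1.99%. TTTGGCGC was in 1, beside 0.666%. An unsplit p53 element was in 0 of the 37, beside 1.35% of all promoters.

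Of the 8 members with TTTCCCGC, 6 had a peak within 1 kb of a start site in each irradiated list, and Brca2 and Wrn did not. Over all protein-coding genes with that motif 62.1% had such a peak in irradiated B cells and 58.4% in irradiated non-B cells, beside 58.5% and 57.5% of all CpG-rich genes. All 6 members with the NRF1 palindrome had a start-site peak in both lists, where 73.2% and 74.6% of all genes with the motif did. A match to these letters describes the sequence and does not show that a factor binds.

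The 160 bases before the start site are shown for 4 members with a start-site peak. These are Mdc1, with a weak mock peak of 5.95, Atm and Rad50, which ranked high, and Bard1, which ranked low. They are written 5′ to 3′ on the strand of the gene, with searched motifs that lie wholly in the stretch in capitals.
Mdc1, chr17:35978300-35978459, plus strand: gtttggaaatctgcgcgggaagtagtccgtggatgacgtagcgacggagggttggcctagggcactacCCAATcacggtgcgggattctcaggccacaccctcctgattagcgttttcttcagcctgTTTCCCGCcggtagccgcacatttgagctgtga
Atm, chr9:53344846-53345005, minus strand: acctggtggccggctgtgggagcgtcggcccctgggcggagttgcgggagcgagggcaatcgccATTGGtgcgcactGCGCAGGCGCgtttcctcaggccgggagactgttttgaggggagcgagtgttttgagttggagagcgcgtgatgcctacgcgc
Rad50, chr11:53520822-53520981, minus strand: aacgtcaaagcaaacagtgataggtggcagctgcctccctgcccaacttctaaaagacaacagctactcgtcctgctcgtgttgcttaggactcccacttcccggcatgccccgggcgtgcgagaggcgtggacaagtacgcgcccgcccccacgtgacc
Bard1, chr1:71149721-71149880, minus strand: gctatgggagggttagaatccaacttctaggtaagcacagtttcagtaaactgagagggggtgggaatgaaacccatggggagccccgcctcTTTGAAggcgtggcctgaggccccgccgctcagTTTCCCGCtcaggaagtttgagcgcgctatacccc
In Mdc1 the capitals are CCAAT, 92 bases before the start site, and TTTCCCGC, 33 bases before it. In Atm they are CCAAT on the other strand and a match to the NRF1 palindrome on the other strand, while a further match to the palindrome runs across the start site and is left in lower case. In Bard1 they are TTTGAA and TTTCCCGC. Rad50 holds none of the searched motifs in this stretch, and its start-site peak ranked highest of the 37 genes in irradiated B cells. The midpoint of that peak lay 111 bp inside the gene, outside the stretch shown.

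Other genes of the same pathway were bound at similar shares. Of 50 further genes listed for break repair, 48 were found by symbol in the annotation. Of these, 46 had a window peak in irradiated B cells (95.8%) and 43 in irradiated non-B cells (89.6%). Weighting all genes to the lengths and promoter CpG class of the 48 gave 69.3% and 67.4%. The counts were 3 in mock B cells, 1 in mock non-B cells and 0 in Trp53-/- spleen IR. Of all genes 3.69%, 1.82% and 0.103% had a window peak in these lists. Promoter peaks were present at 42 and 40 of the 48 in irradiated B and non-B cells, beside 59.6% and 58.3% of all genes weighted the same way. The highest window peak had a median percentile of 60.9 in irradiated B cells and 59.8 in irradiated non-B cells, and 44 of the 48 had a CpG-rich promoter.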

How the data were processed

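p53 ChIP-seq peak lists of 5 libraries were used, and an input library without a list was not used. Per the labels and the methods of the study, reads were aligned to mm9 with BWA 0.6.2 and peaks were called with MACS in each library, at a stated limit of 1e-08. The deposited column was taken as −log10 of each p-value from the authors' peak caller, not normalised between libraries. The lists have no header to state this, and the unit was read from the values, which may be a rescaled form of the caller's own score. Values below 8 made up 31.6% of the mock list of B cells and 4.50% of their irradiated list, so in that unit the stated limit had not been applied to every list. The narrowest peaks measured 55 and 53 bp in the mock lists but 175 and 174 bp after irradiation. Peak numbers can move with calling settings and depth, so absence from a list does not show absence of binding.

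Peaks were overlapped by at least 1 bp with GENCODE vM1 genes, and sequences were read from NCBIM37 (mm9), with coordinates from 1. No test was run, since each group had 1 library and genes are not replicates. All 37 members were accounted for, and values were given in full for those with a mock peak, a highest peak with a percentile over 80, an unsplit element, a peak in only 1 irradiated wild-type list, or none. Members, lists and motifs were chosen with earlier results of these data known. Alternatives changed the window, overlap rule, minimum value, list length, length bins, promoter and element settings. The overlap and element steps were tested on simulated data. Software comprised samtools 1.23.1 and Python 3.11.15 with matplotlib 3.10.9, numpy 2.4.6, pysam 0.24.0 and statsmodels 0.14.6.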

Additional observations from a re-analysis of the deposited data

How the results depend on the processing

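For irradiated B cells 28 of 32 alternative values stayed within 1.5 times a count or within the counting interval of a share, and for irradiated non-B cells 27 of 32. Values of the mock non-B and Trp53-/- lists, where counts were 0, say nothing about stability. Nor could some alternatives move the member counts of the irradiated lists. No member peak there had a value under 8 or overlapped a Trp53-/- peak, and equal length took no peak from irradiated non-B cells. In irradiated B cells the fall from 33 to 22 members at a minimum value of 20 lay at the limit of 1.5 times and counted as within it. The mock peak of Mdc1 was lost, leaving 0 members bound in mock B cells, with the gene body alone, with lists of equal length, or with a minimum value of 8 or 20, and the promoter count was then 0 at both minimum values. A minimum value of 20 left 21 members bound in irradiated non-B cells, 18 members with a promoter peak in irradiated B cells and 17 in irradiated non-B cells, beside 22.9% and 22.4% of all genes with such a promoter peak and 30.2% with a window peak in irradiated non-B cells, and brought the excess over genes of like length in irradiated B cells to 18.8 percentage points. Over all alternatives that excess ranged from 18.8 to 34.1 in irradiated B cells and from 18.5 to 33.2 in irradiated non-B cells. Members with an unsplit element numbered 2 in either IR list with at most 2 mismatches, and 12 in irradiated B cells and 11 in irradiated non-B cells with at most 4. The shares of all peaks at these mismatch limits were not counted. An element with a spacer of 1 to 15 bases and at most 2 mismatches, added after seeing the data, was found in 4 members in irradiated B cells. These were Xrcc4, Xrcc6, Parp1 and Fanca, and all but Parp1 made up the 3 in irradiated non-B cells. Of all peaks 15.9% and 15.3% held such an element, and of windows moved by 10 kb 11.7% in each list. With both irradiated lists at 21400 peaks, 3 members were bound in only 1 of them: Rnf168 in B cells, and Chek1 and Fanci in non-B cells. Chek1 and Fanci each had 9.46 in irradiated B cells, under the lowest value of 10.08 kept there. The share of all genes bound in only 1 list was not counted at equal length. At full length 48.6% of all genes were bound in irradiated B cells, 47.0% in irradiated non-B cells and 44.3% in both. No paired analysis was possible because the lists came from 1 library per group. Depth was unknown, and differences in peak calling between lists were not tested.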
